A study of Mus musculus with 6 samples.

Results

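Cadherins are calcium-dependent adhesion proteins of the cell surface, and 8 of them were followed in sorted cells of the mouse intermediate mesoderm, the tissue that forms the kidneys. The 8 genes were Cdh1, Cdh2, Cdh3, Cdh4, Cdh6, Cdh11, Cdh13 and Cdh16. All probe sets that the platform annotation assigns to exactly 1 of these symbols were taken, which gave 17 of the 45037 probe sets tested and 8 of 18193 genes. The genes were chosen by their family and by measured values, since the list was drawn up with the null-minus-heterozygote differences of Cdh16 and Cdh6 already known. The differences of the 8 genes between genotypes are therefore given as a description, without a test.

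The EGFP-positive cells came from Pax2 null embryos, titled EGFP/EGFP, and from Pax2 heterozygote embryos, titled EGFP/+, at E11.5. Each genotype had 3 arrays, and each array used 10 ng of total RNA. All 6 samples carried EGFP and at most 1 intact copy of Pax2, which encodes a transcription factor needed for kidney formation, and no wild-type sample was compared. Genotype and the number of EGFP copies used for the sort cannot be told apart. Nothing in the labels says that samples came from separate litters, so each p-value reflects the spread among these arrays, part of which may be technical.

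In the developing kidney, condensing mesenchyme becomes epithelium as it forms nephrons, while the nephric duct and its ureteric bud are epithelial from early on. Cadherins differ between these states. Classical cadherins bind the same kind of cadherin on the next cell and hold the actin cytoskeleton through catenins. Cdh1 (E-cadherin) and Cdh16 (kidney-specific cadherin) are known from duct and tubule epithelium. Cdh6 (K-cadherin) is known from early nephrons, Cdh4 (R-cadherin) from kidney mesenchyme and nervous tissue, and Cdh2 (N-cadherin) and Cdh11 (OB-cadherin) from mesenchymal cells. Cdh3 (P-cadherin) marks many basal epithelial cells, and Cdh13 (T-cadherin) lacks the membrane-spanning and catenin-binding parts and is held in the membrane by a lipid anchor.

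The array medians lay between 6.12 and 6.24 on the log2 scale, and arrays of 1 genotype correlated at 0.976 to 0.991 over all probe sets, so none was a copy of another. The labelled tissue was checked with 7 regulators of the intermediate mesoderm, the nephric duct and the kidney mesenchyme. Eya1, Osr1, Wt1 and Hoxd11 lay between 9.04 and 11.47 on the log2 scale on all arrays. Sall1 lay between 7.60 and 9.93, Pax8 between 7.45 and 9.58, and Lhx1, the dimmest of the 7, between 5.85 and 8.83. The targeted gene is not analysed here and gave no check of the genotype labels. The number of arrays limits the precision. Probes differ in how brightly they bind. Log2 values of different probe sets are therefore not compared with each other below, apart from marker sums and ranks by brightness.

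Among the 8 cadherins, Cdh16 and Cdh4 were lower in null cells and Cdh6 was higher, each with no overlap between the arrays of the genotypes, whereas Cdh1, Cdh2, Cdh3, Cdh11 and Cdh13 overlapped in every probe set. The label of a switch between Cdh16 and Cdh6 thus leaves out Cdh4, whose probe set of highest mean had a difference of -1.56 log2, next to -1.28 for Cdh16 and 1.61 for Cdh6. Of the 17 probe sets, 6 had arrays that did not overlap, 2 of them higher and 4 lower in null. Of all probe sets, 11.7% did not overlap, 5.56% with null higher and 6.13% with null lower. With limma's adjusted p under 0.05 over all probe sets, 2 of the 17 were called, 1 higher (Cdh6) and 1 lower (Cdh4), where 0.691% of all probe sets were called, 0.391% higher and 0.3% lower. Since the genes were listed on this comparison, nothing is read from those counts. The 2 calls became 0 without null 1, null 3, heterozygote 2 or heterozygote 3, and 1 without null 2.

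**Figure D1:**
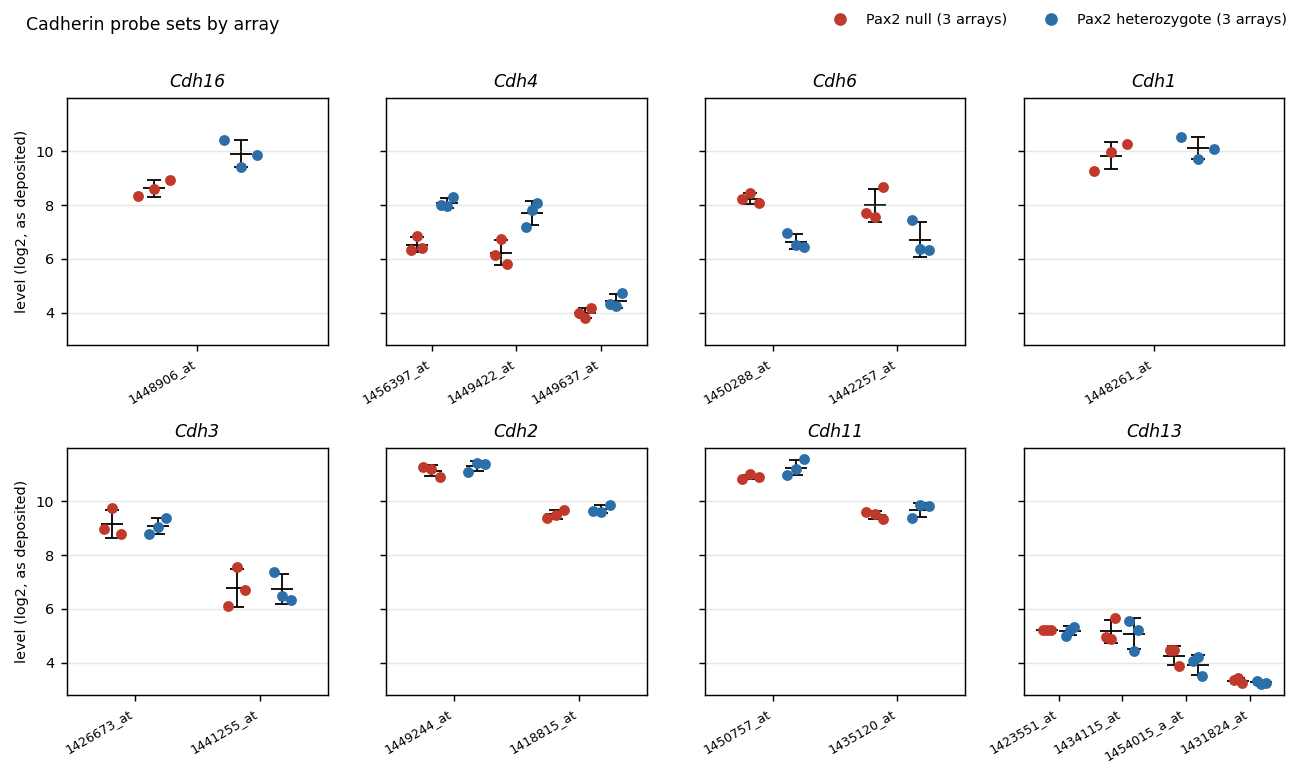
Log2 level (vertical axis, as deposited) of every probe set of the 8 cadherins on each array, with Pax2 null arrays in red left of Pax2 heterozygote arrays in blue. Black bars are the mean and SD of 3 arrays. The red points lie below the blue ones in Cdh16 and Cdh4 and above them in both probe sets of Cdh6, and the colours overlap in the other 5 genes.

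Cdh16, an atypical cadherin with a short cytoplasmic tail, was measured by 1 probe set (1448906_at). Its log2 values were 8.33, 8.60 and 8.94 in null cells, against 10.44, 9.43 and 9.85 in heterozygous cells. The highest null array lay 0.49 below the lowest heterozygote array. The mean was 8.62 ± 0.31 in null cells and 9.91 ± 0.51 in heterozygous cells (SD, n = 3 each), a difference of -1.28 ± 0.28 (SE), or 2.43-fold lower in null. Cdh16 was still bright in null cells, its mean over the 6 arrays lying above that of 84.2% of all probe sets. Leaving out 1 array moved the difference between -1.52 (without heterozygote 2) and -1.02 (without heterozygote 1), always with the same sign.

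Cdh6, a type II cadherin, was higher in null cells in both of its probe sets. In 1450288_at, the probe set of higher mean, the log2 values were 8.21, 8.45 and 8.06 in null cells, against 6.95, 6.51 and 6.44 in heterozygous cells. Every null array lay at least 1.10 above every heterozygote array, and the fold was 3.04, from a difference of 1.61 ± 0.20 (SE). In 1442257_at the values were 7.72, 7.57 and 8.67 in null cells, against 7.46, 6.37 and 6.31 in heterozygous cells. Here the gap between the groups was only 0.11, because heterozygote 1 stood well above the other two heterozygote arrays. The difference of that probe set was 1.28 ± 0.39 (SE), or 2.42-fold higher in null, and the mean over both probe sets was 1.44.

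Cdh4, a type I cadherin, had 3 probe sets and was lower in null cells in each. In 1456397_at the log2 values were 6.32, 6.85 and 6.40 in null cells, against 8.01, 7.96 and 8.29 in heterozygous cells. The groups were 1.11 apart at their nearest arrays, and the difference was -1.56 ± 0.20 (SE), or 2.96-fold lower in null. In 1449422_at the values were 6.14, 6.75 and 5.81 in null cells, against 7.19, 7.82 and 8.09 in heterozygous cells, a difference of -1.47 ± 0.31 (SE) or 2.77-fold. The third probe set, 1449637_at, was dim, with a mean over the 6 arrays of 4.20, below the dim limit of 4.81 that marks the 33rd percentile of probe set means. Such probe sets can understate differences, and this one had 3.98 ± 0.18 in null cells and 4.41 ± 0.26 in heterozygous cells (SD, n = 3 each), a difference of -0.43 ± 0.19 (SE).

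Cdh1, the main adhesion protein of duct epithelium, did not follow Cdh16 in size. Its 1 probe set (1448261_at) had log2 values of 9.27, 9.98 and 10.26 in null cells, against 10.55, 9.73 and 10.09 in heterozygous cells. The groups overlapped, and the difference was -0.29 ± 0.31 (SE), smaller than its error. Cdh1 and Cdh16 ranked the arrays of each genotype alike, with null 1 lowest and null 3 highest among null arrays, and heterozygote 2 lowest and heterozygote 1 highest among heterozygote arrays. Cdh3, the protein-coding gene next to Cdh1 in the RefSeq annotation of GRCm38.p6, averaged 9.17 ± 0.52 in null cells and 9.07 ± 0.30 in heterozygous cells in 1426673_at (SD, n = 3 each). Its differences were 0.10 ± 0.28 (SE) there and 0.05 ± 0.41 in 1441255_at, both far inside the spread, and both changed sign in some of the fits with 1 array left out.

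The arrays of the genotypes overlapped for Cdh2 and Cdh11, the cadherins known from mesenchyme. Cdh2 had log2 values of 11.29, 11.21 and 10.92 in null cells, against 11.09, 11.44 and 11.40 in heterozygous cells, in 1449244_at, and a difference of -0.17 ± 0.18 (SE). Its other probe set, 1418815_at, gave -0.20 ± 0.16. Cdh11 had values of 10.85, 11.01 and 10.89 in null cells, against 11.00, 11.20 and 11.57 in heterozygous cells, in 1450757_at. The null value of 11.01 and the heterozygote value of 11.00 overlapped narrowly, and the difference was -0.34 ± 0.19 (SE), with -0.18 ± 0.19 in 1435120_at. Neither Cdh2 nor Cdh11 was higher in null in any probe set. The 12 stromal markers given below all had a positive difference in their probe set of highest mean, and 6 passed limma's threshold.

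Cdh13 had 4 probe sets, all in the lower part of the range. The brightest, 1423551_at, averaged 5.22 ± 0.02 in null cells and 5.18 ± 0.17 in heterozygous cells (SD, n = 3 each). Its differences in the 4 probe sets lay between 0.04 ± 0.16 and 0.34 ± 0.25 (SE), and 2 of the 4 were under the 33rd percentile. The 95% interval of the difference in 1423551_at ran from -0.32 to 0.40. With the dim Cdh4 probe set, 3 of the 17 probe sets were under that percentile and 14 were above it.

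**Figure D2:**
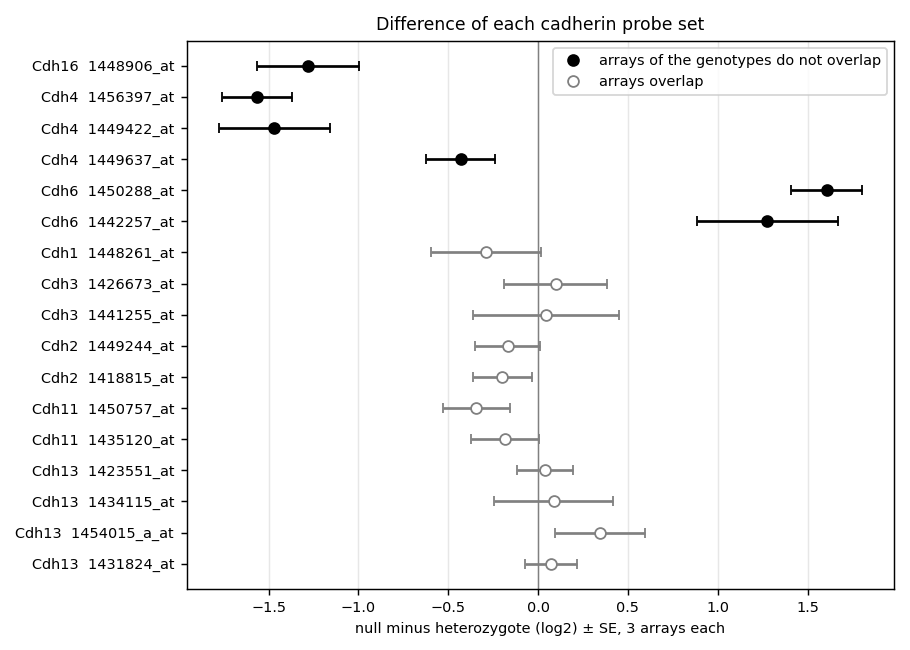
Difference of each cadherin probe set, null minus heterozygote on the log2 scale (horizontal axis), with bars of 1 SE from the fit (3 arrays per genotype). Filled points are probe sets whose arrays do not overlap between genotypes, namely those of Cdh16, Cdh4 and Cdh6, and open points are the 11 that overlap.

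The labels give no batch, but the bacterial control transcripts added at hybridization sorted the 6 arrays into 3 pairs of 1 null and 1 heterozygote each. Pair 1 was null 3 with heterozygote 1, pair 2 was null 1 with heterozygote 2 and pair 3 was null 2 with heterozygote 3. Within these pairs Cdh16 differed by -1.50, -1.10 and -1.25 log2 (null minus heterozygote). Cdh4 differed by -1.62, -1.64 and -1.44 in 1456397_at and by -1.39, -1.69 and -1.34 in 1449422_at. These 3 probe sets thus had the same sign and a similar size in each pair, whereas the dim probe set of Cdh4, 1449637_at, had -0.14, -0.25 and -0.91. Cdh6 differed by 1.22, 1.35 and 1.25 in 1442257_at, where the unpaired groups had almost touched, but by 1.10, 1.70 and 2.01 in 1450288_at. For 1442257_at the SE fell to 0.11 with the pair as a block, against 0.39 without it, whereas for 1450288_at it stayed at 0.20.

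Cdh1 was lower in null in each pair, by -0.29, -0.46 and -0.12, although its groups overlapped. Cdh11 was lower in each pair in both probe sets, by -0.12, -0.35 and -0.56 in 1450757_at and by -0.03, -0.24 and -0.29 in 1435120_at. Cdh2 differed by -0.17, -0.15 and -0.19 in 1449244_at, but by 0.03, -0.25 and -0.38 in 1418815_at, where the first pair had the opposite sign. The pair differences of Cdh3 and Cdh13 had mixed signs in every probe set. With the pair as a block, 5 of the 17 probe sets were called by limma, both of Cdh6, 2 of Cdh4 and that of Cdh16, where 1.71% of all probe sets were called. Nothing is read from that count either, and the pairing is a pattern found in the control probe sets that no label states. The sample titles are numbered, and the numbers of the paired samples lie equally far apart in each pair.

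**Figure D3:**
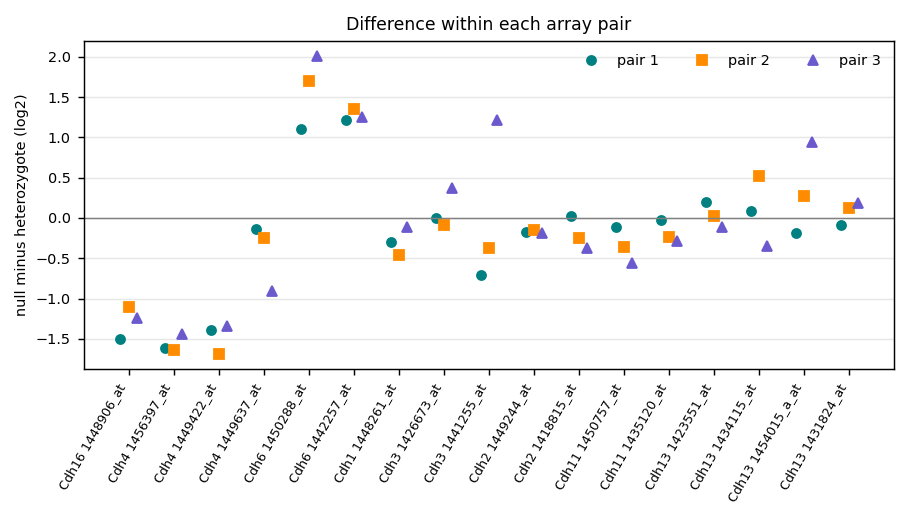
Difference of each cadherin probe set within the 3 array pairs, null minus heterozygote on the log2 scale (vertical axis), with circles, squares and triangles for pairs 1, 2 and 3. Cdh16 and the upper 2 Cdh4 probe sets lie below -1 in all pairs, both Cdh6 probe sets lie above 1, and Cdh3 and Cdh13 scatter about 0.

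The genes whose values over the 6 arrays were nearest to those of Cdh6 and Cdh16 were sought among 13424 genes above the 33rd percentile. Each gene was centred on its own mean, and likeness was the root-mean-square distance over the 6 arrays, in log2 units. Nearest to Cdh6 were Notum, which encodes a secreted Wnt inhibitor, at a distance of 0.075, and Car3, a carbonic anhydrase, at 0.098. The neurofilament gene Nefm followed at 0.15, then the transcription factor gene Fli1 and the glutamate receptor gene Grin3a, both at 0.18. Notum had log2 values of 8.38, 8.62 and 8.41 in null cells, against 7.29, 6.73 and 6.66 in heterozygous cells, so that null 2 was highest and heterozygote 3 lowest, as in Cdh6.

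Nearest to Cdh16 were Htra3, a secreted serine protease gene, at 0.098, and Cthrc1, which encodes a secreted collagen triple helix repeat protein, at 0.11. Tspan15, a tetraspanin gene, and F3, which encodes tissue factor, were both at 0.13, and the Wnt inhibitor gene Dkk1 was at 0.14. Htra3 had values of 7.40, 7.94 and 8.19 in null cells, against 9.61, 8.57 and 9.18 in heterozygous cells. Its order of arrays was that of Cdh16, with null 1 lowest and heterozygote 1 highest. These genes were picked for their likeness, so their differences are a description.

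**Figure D4:**
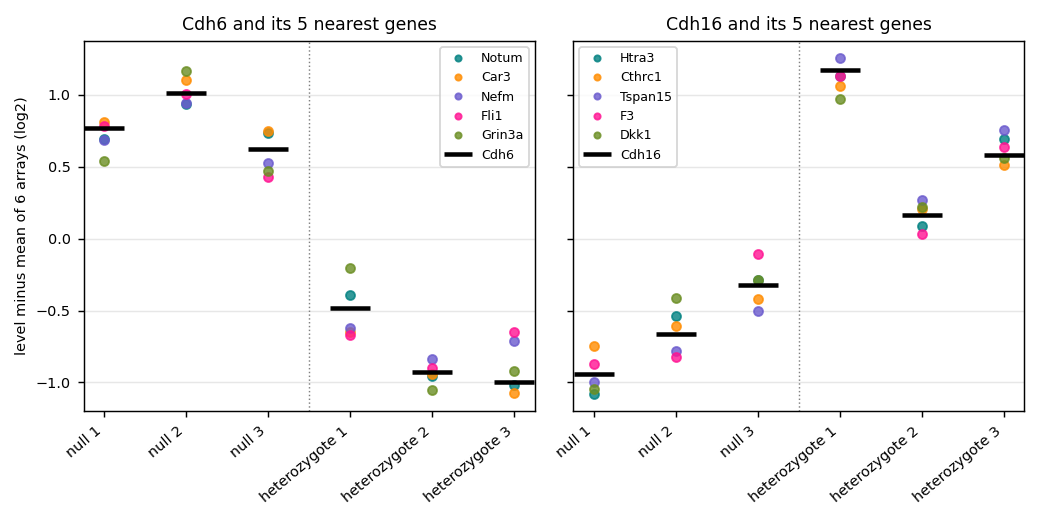
Log2 level minus the mean of the 6 arrays (vertical axis) for Cdh6 (left) and Cdh16 (right), drawn as black bars, with the 5 nearest genes as coloured points. Null arrays stand left of heterozygote arrays, and a dotted line parts them. Heterozygote 1 is the highest array for Cdh16 and the highest heterozygote array for Cdh6.

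Other genes of cadherin adhesion were read from lists that did not include the 8 members, using for each gene its probe set of highest mean in the same fit, where 0.951% of all genes were called, 0.544% higher and 0.407% lower in null. With the array pair as a block, 2.38% of all genes were called, 1.4% higher and 0.984% lower. Of 13 other cadherins measured, 0 passed limma's adjusted p of 0.05, with or without the pair block. At an unadjusted p under 0.05 there were 3, Cdh10 and Cdh26 (higher) and Cdh15 (lower). The share of all genes under that cut was not computed, so nothing is read from such counts here or in the lists below. Cdh10, a type II cadherin known from nervous tissue, averaged 5.79 ± 0.40 in null cells and 4.63 ± 0.40 in heterozygous cells (SD, n = 3 each), with a limma adjusted p of 0.173. Cdh15, the cadherin of muscle, had a difference of -0.48 ± 0.16 (SE), and Cdh26 one of 1.15 ± 0.32. The median difference of the 13 was 0.20, where the median over all probe sets was -0.01, and 8 of the 13 were under the 33rd percentile.

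Catenins link classical cadherins to actin. Of 18 catenin and adherens junction genes, 0 passed limma's threshold, with or without the pair block, and 3 had an unadjusted p under 0.05 (Ctnnd2, Arvcf and Lima1). Ctnnb1, which encodes beta-catenin, had log2 values of 12.41, 12.34 and 12.49 in null cells, against 12.35, 12.46 and 12.33 in heterozygous cells. Ctnna1, which encodes the alpha-catenin of epithelia, had a difference of 0.00 ± 0.15 (SE). Both were named after their values were seen. Ctnnd2, a catenin known from neurons, had the smallest p of the list, with 8.09 ± 0.16 in null cells and 8.97 ± 0.28 in heterozygous cells (SD, n = 3 each; limma adjusted p = 0.142). The median of the list was 0.02.

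Desmosomes are junctions built from desmosomal cadherins and anchored to keratins. Of 10 desmosome genes, 0 passed limma's threshold and 2 had an unadjusted p under 0.05. Perp, which encodes a desmosomal membrane protein of stratified epithelia, averaged 8.05 ± 0.48 in null cells and 6.32 ± 0.59 in heterozygous cells (SD, n = 3 each), and Dsc2, a desmosomal cadherin gene, averaged 6.48 ± 0.45 in null cells and 7.50 ± 0.50 in heterozygous cells. Their limma adjusted p values were 0.102 and 0.348, and with the pair as a block 0.0442 and 0.0244. Pkp2, a plakophilin gene, had a difference of -0.71 ± 0.35 (SE).

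Protocadherins, which are relatives of the cadherins without a catenin-binding tail, held 3 genes that rose. Of 23 measured protocadherins and large cadherins, Pcdh9, Pcdh10 and Pcdh18 rose in null cells and 0 fell (limma, adjusted p = 0.0146, 0.0213 and 0.0454). Pcdh9 had log2 values of 9.00, 8.86 and 8.49 in null cells, against 6.63, 7.08 and 7.13 in heterozygous cells. Pcdh10 had 6.90, 6.63 and 6.23 in null cells, against 5.04, 4.43 and 4.76 in heterozygous cells, and 5 of its 6 probe sets had the same sign. Pcdh18 averaged 9.43 ± 0.07 in null cells and 8.37 ± 0.23 in heterozygous cells (SD, n = 3 each). The groups did not overlap for any of the 3 genes. With the pair as a block, limma also called Pcdh11x (1.60) and Fat3 (-1.14), both named after their values were seen (adjusted p = 0.0142 and 0.0229, against 0.0556 and 0.236 without it). Pcdh11x passed limma's threshold in other alternatives as well, with array weights (0.0127), an intensity-dependent prior (0.0422), the filter on dim probe sets (0.0369), 1 probe set per gene (0.0316) or without heterozygote 1 (0.0302), and Fat3 in none of these. Pcdh19, likewise named after its values were seen, had the lowest difference of the list, -1.51 ± 0.29 (SE), with no overlap between genotypes. Its limma adjusted p was 0.0913, and 0.0786 with the pair as a block. In the list 14 differences were positive and 9 negative, and the median was 0.08. Without null 1, null 2, heterozygote 2 or heterozygote 3 the calls of Pcdh9 and Pcdh10 were lost (limma adjusted p up to 0.0732 and 0.104), and that of Pcdh18 was lost in every such fit but the one without heterozygote 1 (up to 0.193). It was also lost with the arrays centred on their medians (0.0620).

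Regulators of cadherin genes include the repressors of Cdh1 in mesenchymal cells (Snai1, Zeb1, Zeb2, Twist1) and transcription factors of epithelial cells (Grhl2, Ovol1). Of 18 measured, Twist2 and Grhl1 rose in null cells and 0 fell (limma, adjusted p = 0.0213 and 0.0357). Twist2, a transcription factor gene of mesenchyme, had log2 values of 8.21, 8.32 and 8.63 in null cells, against 6.82, 6.21 and 6.84 in heterozygous cells. Grhl1, a Grainyhead factor gene of surface epithelia, had 6.53, 6.75 and 6.65 in null cells, against 5.73, 5.26 and 5.36 in heterozygous cells. Neither gene overlapped between genotypes. Both calls were lost without any 1 array other than heterozygote 1 (limma adjusted p up to 0.0792 for Twist2 and 0.172 for Grhl1), and that of Grhl1 also after renewed quantile normalization (0.0567), median centring (0.0533) or an intensity-dependent prior (0.0588).

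With the pair as a block, 7 of the 18 regulators were called higher and 1 lower by limma, where 1.4% of all genes were called higher and 0.984% lower. Among them were Twist1 (2.15 ± 0.50, SE without the block), Snai1 (1.32 ± 0.33), Zeb2 (1.18 ± 0.22) and Grhl3 (2.40 ± 0.42), whose adjusted p values with the block were 0.0254, 0.0309, 0.0213 and 0.0261. They were named after their values were seen, and without the block their limma adjusted p values were 0.163, 0.194, 0.0746 and 0.0606. Grhl3 and Zeb2 also passed with array weights (0.0186 and 0.0244) and with 1 probe set per gene (0.0342 and 0.0447). Grhl3 passed too with the intensity-dependent prior (0.028), with the filter on dim probe sets (0.0356) and without null 1 (0.0475) or heterozygote 1 (0.0359), as Twist1 did without heterozygote 1 (0.044). The 1 regulator called lower with the block was Ovol2 (-0.98 ± 0.45, limma adjusted p = 0.0306, against 0.717 without it), whose arrays overlapped. Klf4 (0.81 ± 0.24) was also called higher with the block (0.0457, against 0.333 without it). Cdh1, which Snai1 and Zeb2 are known to repress, had the difference of -0.29 given above. Snai2 (-0.02 ± 0.21), Grhl2 (-0.06 ± 0.28) and Esrp2 (0.09 ± 0.16), likewise picked after the fact, stood near 0 with overlapping arrays. Without overlap, 8 of the 18 regulators were higher in null and 3 were lower. Those 3 were Zeb1 (-0.27 ± 0.16), Ovol1 (-0.64 ± 0.26) and Snai3 (-0.52 ± 0.20), and none of them passed limma's threshold, with or without the block. Of all probe sets, 5.56% were higher and 6.13% lower without overlap. The share over genes by their probe set of highest mean was not computed, so nothing is read from these counts. For Zeb1 the 4 probe sets were split, 2 of them lower in null. The median of the list was 0.10.

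**Figure D5:**
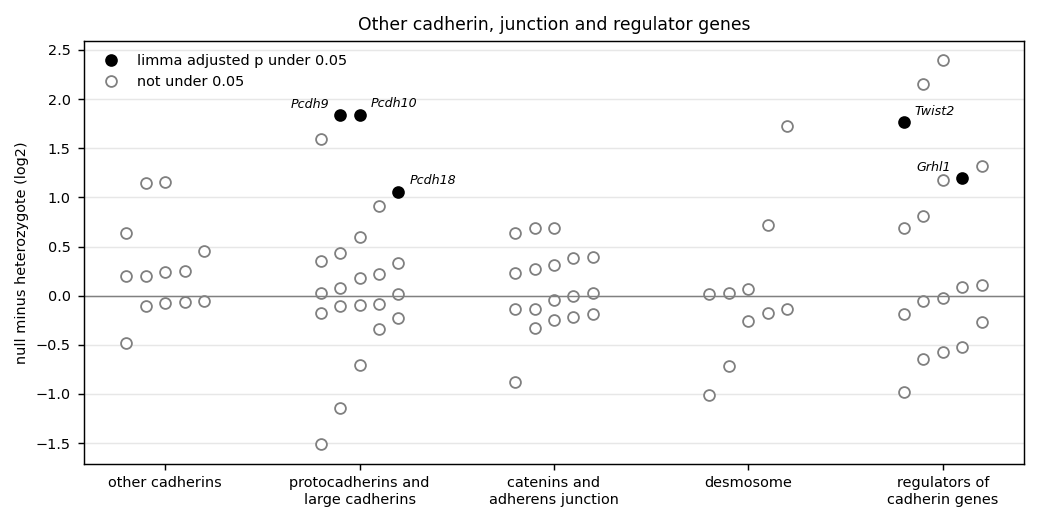
Difference of each measured gene of 5 lists, null minus heterozygote on the log2 scale (vertical axis), from the probe set of highest mean. Filled points with names have a limma adjusted p under 0.05. They are Pcdh9, Pcdh10 and Pcdh18 among 23 protocadherins and large cadherins and Twist2 and Grhl1 among 18 regulators, and the other lists hold none.

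Markers of the cell types that the sort could hold were read beside the cadherins, and some of these lists differed between genotypes while others overlapped. For each list the values of its genes were summed on the linear scale and given as log2. The brightest probe sets weigh most in such a sum, so it can differ from the mean log2 level of the list. Nephric duct markers summed to 10.96 to 11.51 in null arrays, against 12.70 to 12.93 in heterozygote arrays, and 6 of 12 fell in limma's fit (Ret, Calb1, Gata3, Lhx1, Mal and Sim1), beside the lower Cdh16. General markers of simple epithelium summed to 13.75 to 14.00 in null arrays, against 13.71 to 14.22 in heterozygote arrays, and 0 of 12 passed limma's threshold (1 at an unadjusted p under 0.05), beside the overlapping Cdh1. With the pair as a block 1 of the 12 was called higher, Krt19, with a difference of 1.21 (limma adjusted p = 0.0218, against 0.118 without it). Duct marker sums thus did not overlap between genotypes, while those of simple epithelium did.

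Markers of nephron progenitors, beside the lower Cdh4, summed to 12.94 to 13.58 in null arrays, against 13.21 to 13.83 in heterozygote arrays, and 2 of 10 fell (Sall1 and Gdnf). Of the 10 differences 9 were negative, with a median of -0.92. The mean log2 level of the list did not overlap, with 9.28 to 9.49 in null arrays, against 9.78 to 10.27 in heterozygote arrays. Cited1, a gene of the nephron progenitors named after its values were seen, differed the other way. It had log2 values of 11.43, 12.01 and 10.74 in null cells, against 9.24, 9.89 and 9.78 in heterozygous cells (limma adjusted p = 0.0822, and 0.0226 with the pair as a block). With the block 1 gene of the list was called higher and 4 lower. Early nephron markers, beside the higher Cdh6, mostly went the other way from it. They summed to 11.87 to 12.01 in null arrays, against 12.15 to 12.60 in heterozygote arrays, with 8 of 9 differences negative and Irx1 passing limma's threshold. The 1 positive difference was that of Wnt4, 0.62 ± 0.19 (SE), without overlap (limma adjusted p = 0.349). With the block 0 early nephron genes were called higher and 4 lower. Stromal markers summed to 13.79 to 14.02 in null arrays, against 12.47 to 12.95 in heterozygote arrays. Of these 12 markers all had a positive difference, and 6 rose (Tbx18, Pdgfrb, Col1a2, Postn, Dcn and Lum).

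Neural markers summed to 10.92 to 11.58 in null arrays, against 10.44 to 11.05 in heterozygote arrays, and 1 of 9 rose, Nefm, which is also among the genes nearest to Cdh6. Of the 9 differences 8 were positive, with a median of 0.14. The mean log2 level of the list was 6.76 to 7.31 in null arrays, against 6.58 to 6.65 in heterozygote arrays. Stmn2, named after its values were seen, differed by 2.64 ± 0.48 (SE, limma adjusted p = 0.0682, and 0.0267 with the pair as a block). Elavl4, a neuronal RNA-binding protein gene named after its values were seen, differed the other way, with 6.90, 6.62 and 6.21 in null cells, against 7.53, 8.47 and 8.35 in heterozygous cells (limma adjusted p = 0.0822, and 0.017 with the pair as a block). With the block 2 genes of the list were called higher and 1 lower. Macrophage markers summed to 10.62 to 12.06 in null arrays, against 9.47 to 10.63 in heterozygote arrays, with all 10 differences positive and 0 passing limma's threshold (5 at an unadjusted p under 0.05). With the block 3 of them were called higher (Tyrobp, Laptm5 and C1qb), where 1.4% of all genes were. Endothelial markers, which include Cdh5, summed to 9.07 to 9.47 in null arrays, against 8.99 to 9.45 in heterozygote arrays. None of the 10 passed in limma, 0 had an unadjusted p under 0.05 and 5 were under the 33rd percentile. Somite and muscle markers summed to 10.07 to 10.11 in null arrays, against 10.65 to 10.86 in heterozygote arrays, and 1 of 8 fell, Meox2. Of their differences 4 were positive and 4 negative, with a median of -0.04, and 4 genes were under the 33rd percentile. Actc1, named after its values were seen, was higher in null without overlap, by 1.11 ± 0.24 (SE, limma adjusted p = 0.14). Erythroid markers summed to 11.79 to 12.61 in null arrays, against 10.92 to 12.50 in heterozygote arrays, and 0 of 6 passed in limma (0 at an unadjusted p under 0.05). The part of these cell types in the cadherin differences was not tested, and in sorted bulk cells fewer cells of a type and less RNA per cell cannot be told apart.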

How the data were processed

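RNA from EGFP-positive cells of 3 Pax2 null and 3 Pax2 heterozygote samples was amplified from 10 ng with a NuGEN kit and hybridized to 1-colour arrays, per the labels' protocols. The deposited values are log2 levels of probe sets. The submitters' processing notes list the tools affy, RMA and limma, with neither versions nor settings stated there. RMA as usually run equalizes the arrays' probe distributions, which can hide differences in total RNA, and compresses differences of dim probe sets. The medians of the deposited values still ranged from 6.12 to 6.24.

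From these log2 values, limma 3.58.1 in R 4.3.3 (lmFit, eBayes, two-sided, no covariates) was fitted to the 45037 probe sets left after 64 array controls, with Benjamini-Hochberg adjustment over all and a threshold of 0.05. The platform annotation gave 34945 of them 1 symbol, 932 several and 9160 were not listed. Each gene of a list was read from whichever of its probe sets had the highest overall mean. By rule, the genes of the lists named in the text are those past the threshold, or otherwise up to 3 with the smallest p. Other list genes in the text, such as those called only with the pair block, were named after their values were seen. The 5 nearest genes were taken by distance. The fit was tested on simulated data with independent noise on each array, which left out the likeness within array pairs. No result here rests on that test.

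The members and lists were chosen with earlier results of these data known. Arrays were paired on 14 bacterial hybridization control probe sets without use of genotype. Among the 15 possible matchings the summed distance was 1.94 for the best and 5.05 for the second. Arrays of opposite genotype correlated across genes, after removal of the genotype means, at 0.377 or more within a pair and at most 0.097 between pairs. Alternatives were renewed quantile normalization, median centring, array weights, the pair block, omission of each array, other priors, a filter on dim probe sets, 1 probe set per gene, other thresholds, no moderation and averaging of a gene's probe sets.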

Additional observations from a re-analysis of the deposited data

How the results depend on the processing

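The differences of Cdh6 and Cdh16 kept their sign and stayed within 1 SD of the replicates in all 11 alternatives run for each, between 1.44 and 1.76 for Cdh6 and between -1.52 and -1.02 for Cdh16. All 3 probe sets of Cdh4 kept their sign in the 10 alternatives run for each, with 1456397_at between -1.73 and -1.46. The differences of both Cdh3 probe sets and of Cdh13 1423551_at and 1434115_at changed sign in 2 or 3 of 10 alternatives. The number of probe sets called over the whole array was less stable. It was 311, and became 650 with array weights, 772 with the array pair as a block, 2 without moderation of the variances, 61 at a threshold of 0.01 and 516 at 0.10, and lay between 65 and 413 with 1 array left out. The member probe sets among these were 2, 3 with array weights, 5 with the pair block and 0 without moderation or at 0.01. No label states a pairing of the samples, so the pair block was set from the control probe sets. The correlations across genes given above were higher within these pairs than between them, and the pairs follow the order of the title numbers. The precision is limited by 3 arrays per genotype and, for dim probe sets, by compression near background.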
